A study of Mus musculus with 6 samples.

Results

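Aminoacyl-tRNA synthetases join each amino acid to its transfer RNA. The 36 genes described here encode 20 cytosolic and 16 mitochondrial members of this enzyme family. They were found in the deposited count table by symbol, through the Ensembl identifiers and GENCODE release M21 on the mouse build GRCm38. All 36 were present among 39179 genes, and all 36 were among the 13775 genes with enough counts to test. The older symbols are used, in which the first letter is the 1-letter code of the amino acid, so that Aars is the cytosolic alanyl enzyme and Aars2 its mitochondrial counterpart.

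RNA was sequenced from 6 samples of differentiated neural progenitor cells (NPCs) taken from the cerebral cortex of CD1 mouse embryos at E13.5. Of these, 3 stably expressed G392E neuroserpin (G392E-NS) and 3 stably expressed green fluorescent protein (GFP). Neuroserpin is a serine protease inhibitor of neurons, and its G392E variant forms polymers in the endoplasmic reticulum and causes the dementia FENIB. The labels give neither the species of the introduced neuroserpin nor its promoter, and no cells with the wild-type protein enter the comparison, so the mutation and the presence of introduced neuroserpin cannot be told apart. The mouse neuroserpin gene Serpini1 had 5.72 ± 0.924 CPM (the share of a library's counts in parts per 1e6, after TMM scaling) in G392E-NS cells and 4.69 ± 0.483 CPM in GFP cells (SD, n = 3 each, adjusted p = 0.419, edgeR). Because the species of the introduced gene is not given, this does not check the labels. The libraries held 15507487 to 24835835 counts. The labels do not say whether replicates are separate cultures, so the spread that p-values rest on may be technical.

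Cytosolic synthetases feed the ribosomes of the cytosol, whereas the mitochondrial enzymes are encoded in the nucleus and imported to charge the transfer RNAs of the mitochondrion. When amino acids run short or unfolded proteins gather in the endoplasmic reticulum, eIF2 kinases slow translation and favour synthesis of the transcription factor ATF4. ATF4 then raises the transcription of amino acid transporters, biosynthetic enzymes and many cytosolic synthetases. In animals a group of cytosolic synthetases is held in the multi-synthetase complex, while others act alone.

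No synthetase passed the test between G392E-NS and GFP cells. The quasi-likelihood test of edgeR, with p adjusted by Benjamini-Hochberg over all genes tested and read at 0.05, called 0 of 20 cytosolic and 0 of 16 mitochondrial genes in either direction, while 6.15% of all genes tested were called (4.79% higher and 1.36% lower in G392E-NS) and 4.98% of those with a mean of at least 8 CPM, a level that all 36 members reach. At an unadjusted p under 0.05, 8 of 36 members (22.2%) passed, beside 22.4% of all genes. DESeq2 called 1 member, the mitochondrial phenylalanyl enzyme Fars2, and limma-voom called 0. These are RNA levels in bulk samples, in which fewer cells of a type and less RNA per cell cannot be told apart.

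The fitted changes were small. The log2 fold change of G392E-NS over GFP lay within 0.5 of zero for 35 of 36 members (97.2%), against 81.4% of all genes tested and 89.8% of genes at that level. The 95% interval lay wholly within a 2-fold change for 35 members, and within a 1.5-fold change for 31 (19 cytosolic and 12 mitochondrial). The standard errors were 0.080 to 0.19 on the log2 scale.

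**Figure D1:**
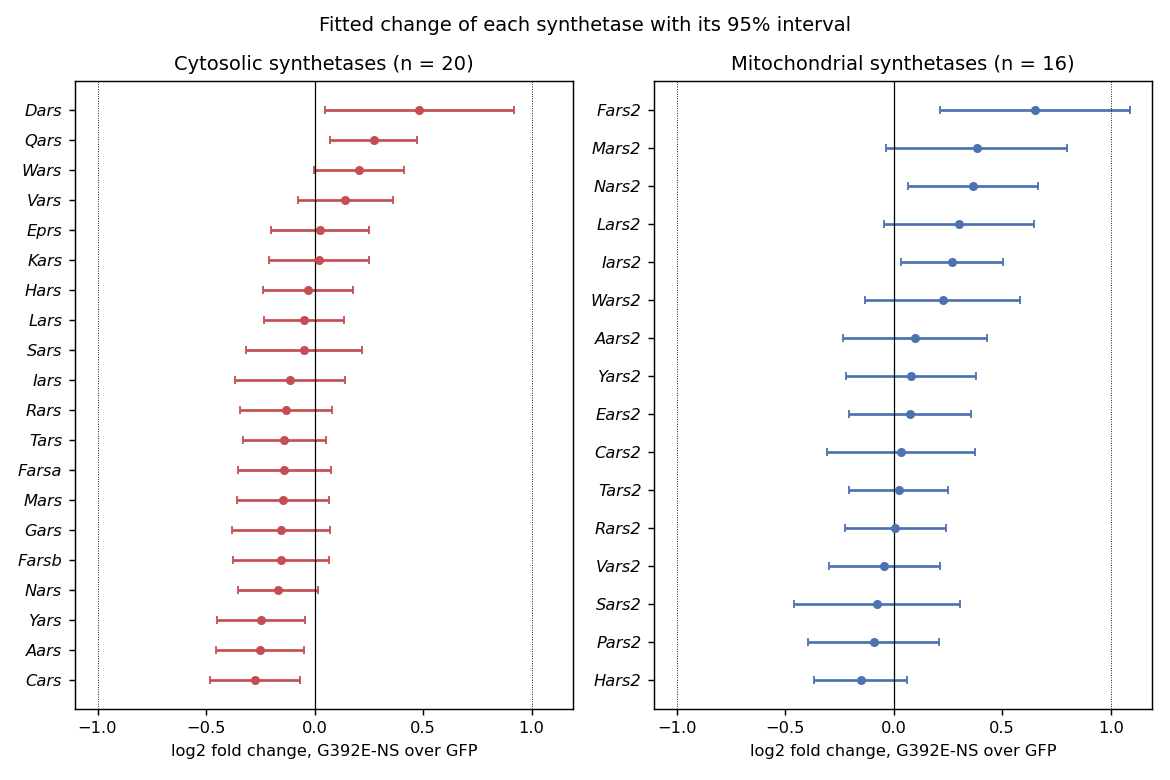
Log2 fold change of each synthetase, G392E-NS over GFP, as points with 95% intervals from the edgeR fit; cytosolic enzymes are in the left panel and mitochondrial enzymes in the right. Of the 20 cytosolic points 14 lie below 0, and of the 16 mitochondrial points 12 lie above 0; none passed the adjusted threshold.

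The members differed far more in level than between groups. Per kilobase of the longest coding transcript, the cytosolic enzymes had a median of 36.6 CPM per kb in G392E-NS cells and 38.8 in GFP cells. The mitochondrial enzymes had medians of 7.0 CPM per kb in G392E-NS cells and 6.69 in GFP cells. Mars2 charges the methionine tRNA that starts and extends chains in the mitochondrion. It was lowest per length, at 1.96 ± 0.352 CPM per kb in G392E-NS cells and 1.51 ± 0.266 in GFP cells (SD, n = 3 each). That rank rests on a long annotated transcript of 11294 bases. In CPM without division by length the lowest was Sars2, at 8.65 ± 1.07 in G392E-NS cells and 9.10 ± 1.07 in GFP cells. Mars2 had 22.1 CPM in G392E-NS cells and 17.0 in GFP cells.

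Lars2, the mitochondrial leucyl enzyme (ENSMUSG00000035202, chr9:123366927-123462666), stood apart from every other member. It had 638 ± 98.8 CPM per kb in G392E-NS cells and 518 ± 24.3 in GFP cells (SD, n = 3 each). The next highest were the cytosolic aspartyl enzyme Dars in G392E-NS cells, at 84.0 ± 22.8 CPM per kb, and the cytosolic asparaginyl enzyme Nars in GFP cells, at 63.8 ± 1.18. Of the 50-base words of the Lars2 transcript, 0.196% also occurred in other annotated transcripts. Likeness to ribosomal RNA was not tested. Without Lars2 the mitochondrial medians were 6.46 CPM per kb in G392E-NS cells and 6.03 in GFP cells.

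**Figure D2:**
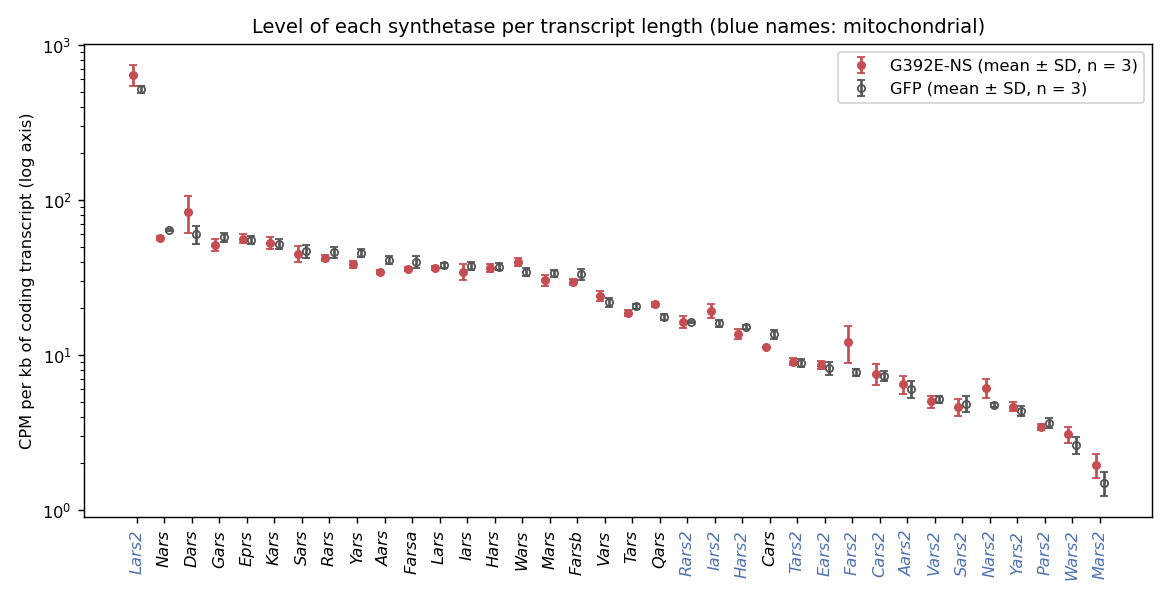
Level of each synthetase in CPM per kilobase of its longest coding transcript, on a log axis, as means of 3 libraries with SD in G392E-NS and GFP cells; mitochondrial enzymes have blue names. Lars2 is the highest in both groups, and most mitochondrial enzymes lie below the cytosolic ones.

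In GFP cells the cytosolic enzymes spanned 13.6 CPM per kb for Cars to 63.8 for Nars. Nars, Dars, Gars, Eprs and Kars led that order, with 52.4 or more CPM per kb. Dars, at 60.1 ± 7.87, and Gars, at 57.4 ± 3.62, were neighbours closer than their spread. Gars and Kars, the glycyl and lysyl enzymes, each serve both the cytosol and the mitochondrion from a single gene in mammals.

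The 3 cytosolic enzymes with the most negative changes were the cysteinyl enzyme Cars, the alanyl enzyme Aars and the tyrosyl enzyme Yars. Cars (ENSMUSG00000010755, chr7:143557230-143600090) had 36.2, 36.1 and 36.4 CPM in the G392E-NS libraries and 47.1, 42.1 and 42.3 CPM in the GFP libraries. Every G392E-NS library lay below every GFP library. The log2 fold change of Cars was −0.27 ± 0.091 (SE, 95% interval −0.48 to −0.065), with an adjusted p of 0.125 from edgeR.

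Aars (ENSMUSG00000031960, chr8:111033144-111057664) had 203.5, 192 and 199.6 CPM in the G392E-NS libraries and 248, 223 and 238 CPM in the GFP libraries. Its groups did not overlap either, and its log2 fold change was −0.25 ± 0.088 (SE, adjusted p = 0.139, edgeR). In the annotation 14.3% of the exon bases of Aars lie in exons of Exosc6 on the same strand, a gene absent from the deposited counts. Whether reads of these bases were counted to Aars is not known. Yars (ENSMUSG00000028811, chr4:129189760-129219607) had 118, 111 and 107 CPM in G392E-NS cells and 129, 127 and 142 CPM in GFP cells. The G392E-NS libraries were again all lower, and the log2 fold change was −0.25 ± 0.088 (SE, adjusted p = 0.148, edgeR).

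Nars and the threonyl enzyme Tars showed the same arrangement with smaller differences. Nars had 159, 158 and 150.3 CPM in the G392E-NS libraries and 172, 174 and 179 CPM in the GFP libraries (log2 fold change −0.17 ± 0.080, adjusted p = 0.261, edgeR). Tars had 72.6, 73.8 and 79.2 CPM in the G392E-NS libraries and 82.6, 79.4 and 86.2 CPM in the GFP libraries. The gap for Tars was narrow, with 79.2 CPM in the highest G392E-NS library beside 79.4 CPM in the lowest GFP library, and its adjusted p was 0.369 (edgeR).

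Across all members, 12 of 36 (33.3%) had groups that did not overlap in either direction, beside 28.6% of all genes tested. On the lower side, 5 of 20 cytosolic genes (25%), and 0 of 16 mitochondrial genes, had every G392E-NS library below every GFP library. Among all genes tested this arrangement occurred in 12.9%. All 5 belong to the 12 cytosolic enzymes listed as ATF4 targets (Aars, Cars, Eprs, Gars, Iars, Lars, Mars, Nars, Sars, Tars, Wars and Yars). Of these 12, 10 had a log2 fold change below 0 and the median was −0.14, while 50.7% of all genes tested were below 0 and their median was −0.0047. The 8 cytosolic enzymes outside the list had a median of −0.0044, with 4 below 0. None of the 12 passed the adjusted test. The list was chosen with earlier results of these data known, so this split is a description only.

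**Figure D3:**
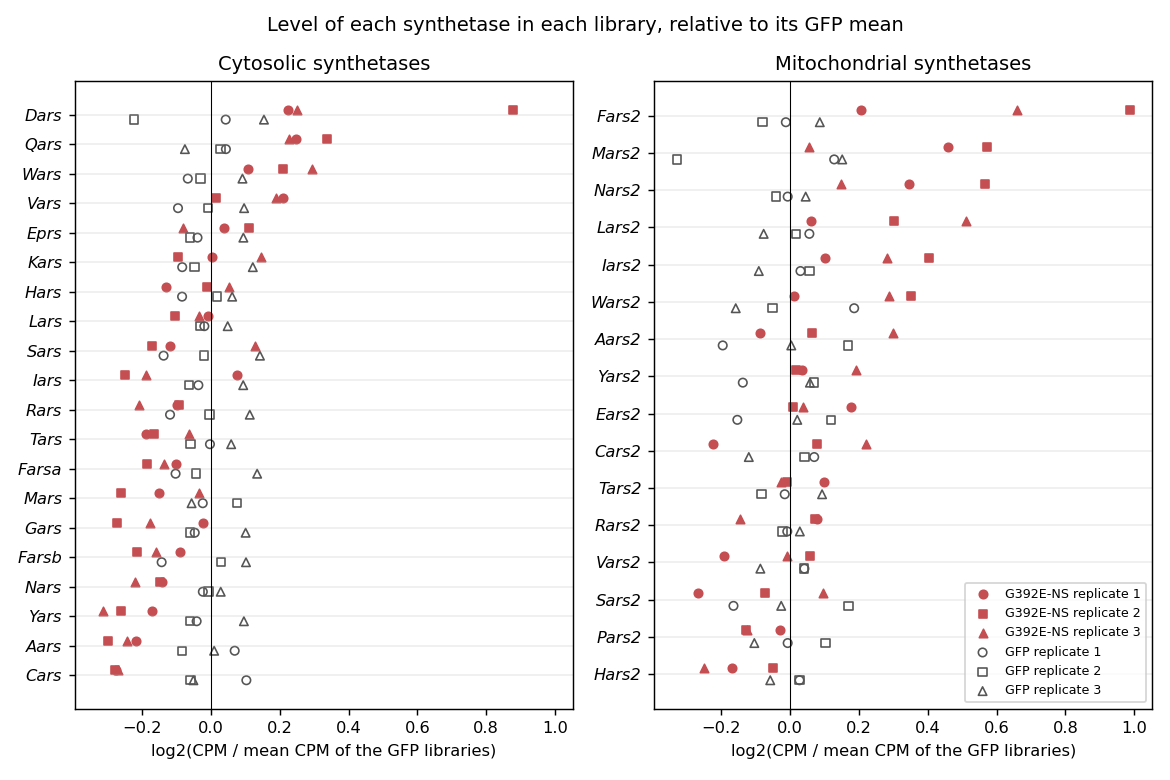
Level of each synthetase in each of the 6 libraries, as log2 of its CPM over the mean CPM of the GFP libraries, with cytosolic enzymes on the left and mitochondrial enzymes on the right. Cars, Aars, Yars, Nars and Tars have all G392E-NS points left of all GFP points, and the widest spread among G392E-NS points is in Fars2 and Dars.

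ATF4 binds DNA with C/EBP partners at elements read as TGATGNAA, where N is any base. That word was searched on both strands in RefSeq promoter windows of the build GRCm38.p6, which run from 250 bases before to 50 bases after each start. Of the 36 members, 27 had a window, 13 cytosolic and 14 mitochondrial. The word was found in 5 of the 13 cytosolic windows (38.5%) and in 0 of the 14 mitochondrial ones. It was present for 4.51% of the 27025 genes of the promoter table and for 2.60% of the 10317 tested genes that have a window. A match of letters is a description and not evidence of binding in these cells.

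Matches of 4 of the 5 enzymes are shown because they mark synthetases whose window holds the word. Each is given with 10 bases on each side, 5′ to 3′ on the strand of the gene, and the matched word in capitals. TTGCATCA and TTTCATCA are the word read from the opposite strand.
Tars: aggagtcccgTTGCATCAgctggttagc
Gars: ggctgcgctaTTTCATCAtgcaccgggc
Yars: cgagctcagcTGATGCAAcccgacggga
Iars: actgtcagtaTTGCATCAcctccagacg
These lie at chr15:11399656-11399683 on the minus strand for Tars. For Gars, Yars and Iars they lie on the plus strand at chr6:55037961-55037988, chr4:129189896-129189923 and chr13:49682127-49682154. The matched word began 15 bases before the start for Tars and 30 bases before it for Gars. It began at base 4 for Yars and base 8 for Iars, counted from 1 at the start.

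The wider Tars promoter, the last 150 bases before its RefSeq start at chr15:11399659-11399808 on the minus strand, shows the single match near its end.
Tars promoter: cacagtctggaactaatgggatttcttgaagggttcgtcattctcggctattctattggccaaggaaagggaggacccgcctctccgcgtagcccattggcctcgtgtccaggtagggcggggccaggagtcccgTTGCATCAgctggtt
The 5 enzymes with the word had log2 fold changes of −0.25 to −0.11 with a median of −0.15, all 5 below 0. All 5 are also among the 12 listed as ATF4 targets, so this split is not independent of that list. The 8 cytosolic enzymes with a window and no match ranged over −0.15 to 0.48 with a median of −0.014, and 4 of them were below 0. Cars and Nars have no window in the table.

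The glycyl enzyme Gars and the isoleucyl enzyme Iars, which carry the word, had overlapping groups. Gars had 134, 113 and 121 CPM in the G392E-NS libraries and 132, 131 and 147 CPM in the GFP libraries, with a log2 fold change of −0.15 ± 0.098 (SE). Iars, whose log2 fold change was −0.11 ± 0.11 (SE), had its highest level of 175 CPM in a G392E-NS library beside 177 CPM in the highest GFP library. Both values moved with the library left out: without G392E-NS replicate 1 they were −0.24 for Gars and for Iars, and without G392E-NS replicate 2 −0.091 for Gars and −0.044 for Iars. Without GFP replicate 3 they were −0.10 for Gars and −0.064 for Iars.

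On the other side, Dars, the glutaminyl enzyme Qars and the tryptophanyl enzyme Wars were the cytosolic genes with every G392E-NS library above every GFP library. These 3 are 15% of the cytosolic genes, near the 15.7% of all genes tested. Qars (ENSMUSG00000032604, chr9:108507706-108515941) had 58.4, 62.1 and 57.6 CPM in the G392E-NS libraries and 50.7, 50.1 and 46.7 CPM in the GFP libraries. Its log2 fold change was 0.27 ± 0.087 (SE, adjusted p = 0.111, edgeR), the lowest adjusted p of the cytosolic enzymes.

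Dars (ENSMUSG00000026356, chr1:128363707-128417368) had 153, 239.9 and 155 CPM in the G392E-NS libraries and 135, 112 and 145 CPM in the GFP libraries. A single library, G392E-NS replicate 2, lay well above the rest. The log2 fold change was 0.48 ± 0.19 (SE, 95% interval 0.050 to 0.92, adjusted p = 0.182, edgeR), and 0.24 without G392E-NS replicate 2.

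Wars is the 1 enzyme of the ATF4 list with every G392E-NS library higher, at 105, 113 and 119.7 CPM, against 93.3, 95.7 and 104 CPM in the GFP libraries. It is also known as a gene that interferon gamma raises. Its log2 fold change was 0.20 ± 0.091 (SE), with an adjusted p of 0.229 (edgeR).

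The cytosolic enzymes also divide by how they are held in the cell. The 8 enzymes of the multi-synthetase complex (Dars, Eprs, Iars, Kars, Lars, Mars, Qars and Rars) had a median log2 fold change of −0.014, with 4 below 0. The other 12 had a median of −0.15, with 10 below 0. Most of these 12 are also on the ATF4 list, among them the 5 with every G392E-NS library lower. The division by complex therefore overlaps the one by that list. Eprs, the bifunctional glutamyl-prolyl enzyme of the complex, had a log2 fold change of 0.025 with a 95% interval of −0.20 to 0.25. The non-enzymatic scaffolds of the complex lay at −0.27 for Eef1e1 (adjusted p = 0.187, edgeR), −0.020 for Aimp1 and 0.35 for Aimp2 (adjusted p = 0.338, edgeR), so 0 of 3 were called by edgeR, and likewise 0 by DESeq2 and limma-voom, while 1 had an unadjusted p under 0.05.

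Synthetases fall into class I and class II by the fold of their catalytic domain. Eprs holds one domain of each class and is left out of this count. Medians were −0.11 for the 9 class I and −0.14 for the 10 class II cytosolic enzymes, and 0.080 for the 9 class I and 0.022 for the 7 class II mitochondrial enzymes. The class II mitochondrial median is the value of a single gene, Tars2, with 3 of the 7 below 0, and Tars2 was −0.039 with total-count scaling.

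The remaining cytosolic enzymes had overlapping groups. Farsb and Farsa, the subunits of the cytosolic phenylalanyl enzyme, had log2 fold changes of −0.15 and −0.14. Mars lay at −0.15, Rars at −0.13, Sars and Lars at −0.048, Hars at −0.028, Kars at 0.020 and Vars at 0.14. Their adjusted p-values were 0.383 or higher (edgeR).

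Among the mitochondrial enzymes the largest fitted change was in Fars2, the mitochondrial phenylalanyl enzyme (ENSMUSG00000021420, chr13:36117412-36726280). It had 19.0, 32.6 and 26.0 CPM in the G392E-NS libraries and 16.3, 15.6 and 17.5 CPM in the GFP libraries. All 3 G392E-NS libraries were higher, with replicate 1 close to the highest GFP library and replicate 2 far above it. The log2 fold change was 0.65 ± 0.19 (SE, 95% interval 0.21 to 1.09), and the adjusted p of 0.0885 (edgeR) was the lowest of the 36.

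The Fars2 call depended on the processing. Its adjusted p was 0.0290 with DESeq2, 0.0235 in edgeR with no low-count filter and 0.0168 in edgeR without G392E-NS replicate 1, and 0.206 in edgeR without G392E-NS replicate 2. In the annotation 8.72% of its exon bases overlap exons of Nrn1 and 2.0% those of Lyrm4, both on the opposite strand. Nrn1 had 0.814 ± 0.177 CPM in G392E-NS cells and 0.571 ± 0.0637 CPM in GFP cells, and Lyrm4 had 9.89 ± 1.73 CPM in G392E-NS cells and 7.52 ± 1.71 CPM in GFP cells (SD, n = 3 each). Neither gene was called, and since the strand setting of the counting is not given in the sources used here, reads of these overlaps cannot be told apart.

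The mitochondrial asparaginyl enzyme Nars2, isoleucyl enzyme Iars2 and leucyl enzyme Lars2 were the others with every G392E-NS library above every GFP library. With Fars2 these are 4 of the 16 mitochondrial genes (25%), beside 15.7% of all genes tested. Nars2 had 23.0, 26.8 and 20.1 CPM in the G392E-NS libraries and 18, 17.6 and 18.7 CPM in the GFP libraries (log2 fold change 0.37 ± 0.13, adjusted p = 0.146, edgeR). Iars2 had 94.2, 116 and 107 CPM in the G392E-NS libraries and 89.7, 91.3 and 82.5 CPM in the GFP libraries (log2 fold change 0.27 ± 0.10, adjusted p = 0.174, edgeR). Iars2 shares 22.9% of its exon bases with Rab3gap2 on the opposite strand, whose own log2 fold change was −0.0032.

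Lars2 had 2101, 2486 and 2871 CPM in the G392E-NS libraries and 2096, 2040.2 and 1912 CPM in the GFP libraries. The gap between the groups was narrow at G392E-NS replicate 1, and the log2 fold change of 0.30 ± 0.15 (SE) had an adjusted p of 0.282 (edgeR). Without G392E-NS replicate 3 it was 0.19. Lars2 made up 2486 of the 5275 CPM that the 36 genes summed to in G392E-NS cells and 2016 of 4839 CPM in GFP cells. As a share the sum was 0.488%, 0.531% and 0.564% of the scaled counts in the G392E-NS libraries, against 0.486%, 0.480% and 0.486% in the GFP libraries. The higher sum rests on Lars2. The cytosolic genes summed to 2385 ± 12.2 CPM in G392E-NS cells and 2455 ± 115 CPM in GFP cells (SD, n = 3 each). The mitochondrial genes without Lars2 summed to 404 ± 26.9 CPM in G392E-NS cells and 367 ± 4.93 CPM in GFP cells.

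Mars2 had overlapping groups at 23.4, 25.3 and 17.7 CPM in the G392E-NS libraries and 18.6, 13.6 and 18.9 CPM in the GFP libraries (log2 fold change 0.38 ± 0.18, adjusted p = 0.261, edgeR), and its change was 0.24 without GFP replicate 2. The other 11 mitochondrial enzymes ranged over −0.15 for Hars2 to 0.22 for Wars2, with adjusted p-values of 0.368 or higher (edgeR). Below 0 were Hars2, Pars2 at −0.093, Sars2 at −0.078 and Vars2 at −0.043. Above 0 were Rars2 at 0.0076, Tars2 at 0.022, Cars2 at 0.034, Ears2 at 0.076, Yars2 at 0.080 and Aars2 at 0.097. Hars and Hars2 lie head to head and share 195 exon bases in the annotation.

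Set side by side, the cytosolic and mitochondrial enzymes leaned in opposite directions. The cytosolic median log2 fold change was −0.12, with 14 of 20 below 0 and a range of −0.27 to 0.48. The mitochondrial median was 0.078, with 12 of 16 above 0 and a range of −0.15 to 0.65. With total-count scaling in place of TMM, which moves the median of all genes to −0.067, the cytosolic median was −0.18 and the mitochondrial median 0.017, so both medians moved down together. Leaving out 1 library also moved them: the mitochondrial median was 0.013 when GFP replicate 1 was left out and 0.13 when GFP replicate 2 was. The cytosolic median was −0.065 when G392E-NS replicate 2 was left out and −0.066 when GFP replicate 3 was.

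The distance between the compartments was also read library by library, as the mean log2 CPM of the 20 cytosolic genes minus that of the 16 mitochondrial genes. It was 1.97, 1.79 and 1.87 in the G392E-NS libraries and 2.02, 2.0 and 2.13 in the GFP libraries. The groups did not overlap, but the gap was narrow, with 1.97 in G392E-NS replicate 1 beside 2.0 in GFP replicate 2. The means were 1.88 ± 0.093 in G392E-NS and 2.05 ± 0.071 in GFP libraries (SD, n = 3 each). They differed by −0.18 on the log2 scale. No p is given, since the genes were listed with results of these samples known. The value is not corrected for transcript length and is read only between groups.

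Within each library the median log2 ratio of the 12 ATF4-listed enzymes to their GFP mean was −0.13, −0.21 and −0.13 in the G392E-NS libraries and −0.030, −0.059 and 0.076 in the GFP libraries. For the 16 mitochondrial enzymes it was 0.048, 0.068 and 0.12 in the G392E-NS libraries and −0.0068, 0.034 and −0.011 in the GFP libraries. These ratios use the GFP libraries as their own base. The members also varied more among the G392E-NS libraries, where the SD over members of the deviation from the mean of their own group was 0.122 to 0.135, against 0.0866 to 0.0936 in the GFP libraries. Whether this spread is particular to synthetases was not tested. The chi-square per degree of freedom between replicates, over genes of all kinds, was 37.0 to 56.4 for G392E-NS and 8.02 to 24.1 for GFP. It is taken on raw counts and weighs highly expressed genes most, so it is not the same measure as the SD.

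**Figure D4:**
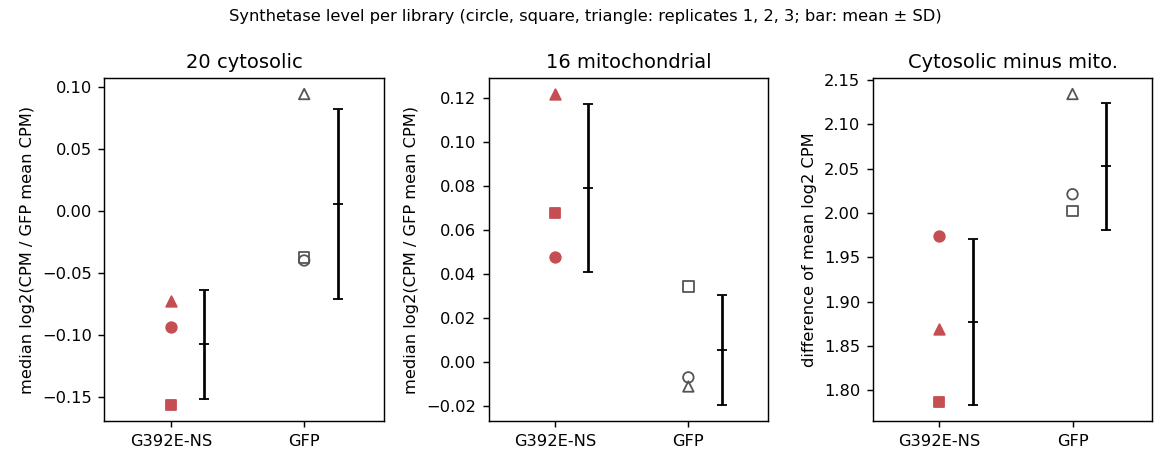
Synthetase levels in each library, G392E-NS left of GFP, with circles, squares and triangles for replicates 1, 2 and 3 and bars for the mean ± SD; the panel titles name the measure and the vertical axes are on the log2 scale. The difference of cytosolic and mitochondrial enzymes is 1.79 to 1.97 in G392E-NS libraries and 2.0 to 2.13 in GFP libraries.

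The genes around the synthetases in the same pathway moved in both directions or did not pass. Of 33 tested genes of the ATF4 and amino acid response, synthetases left out, 2 rose and 3 fell, where 4.79% of all genes tested were higher and 1.36% lower, and the median log2 fold change was 0.039. At an unadjusted p under 0.05, 15 of the 33 passed, beside 22.4% of all genes tested. Slc6a9, a glycine transporter, rose, with a log2 fold change of 0.87 ± 0.19 at an adjusted p of 0.0365 (edgeR), and Ddit4, an inhibitor of mTORC1 signalling, rose with one of 0.39 ± 0.090 (adjusted p = 0.0436, edgeR). Mthfd2, a mitochondrial folate enzyme, fell to 7.11, 8.10 and 7.30 CPM in G392E-NS libraries, against 11.5, 13.4 and 14.6 CPM in GFP libraries (log2 fold change −0.81, adjusted p = 0.0205, edgeR). Nupr1, a stress-induced chromatin protein, and Trib3, a pseudokinase that restrains ATF4 signalling, each had a log2 fold change of −1.71, at adjusted p-values of 0.0309 and 0.0486 (edgeR). Both lay at low levels. Nupr1 had 0.541, 1.53 and 0.913 CPM in the G392E-NS libraries and 3.46, 3.51 and 2.91 CPM in the GFP libraries. Trib3 had 0.499, 0.382 and 1.17 CPM in the G392E-NS libraries and 2.13, 2.51 and 1.75 CPM in the GFP libraries.

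These calls depended on which libraries were used. Without any 1 GFP replicate, 0 of the ATF4 response genes were called in either direction, and without G392E-NS replicate 1 there were 4 higher and 4 lower. Atf4 itself had 125, 154 and 130.2 CPM in the G392E-NS libraries and 166, 136 and 183 CPM in the GFP libraries, with overlapping groups (log2 fold change −0.25, adjusted p = 0.321, edgeR). Asns, the asparagine synthetase that is a standard ATF4 target, lay at −0.16 (adjusted p = 0.359, edgeR). Other genes of the list lay above 0, among them Slc3a2 at 0.77 (adjusted p = 0.0563, edgeR). Slc7a11 lay at 1.38 with overlapping groups (adjusted p = 0.134, edgeR). Of the 33 tested genes of this list, 17 had a log2 fold change above 0 and 16 below. Atf4, Asns, Slc3a2, Slc7a11 and Trib3 were named after their values were seen.

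Of 15 tested genes for eIF2, its kinases, its exchange factor eIF2B and regulators of these (Gcn1l1, Impact and Ppp1r15b), 0 were called, and 0 passed at an unadjusted p under 0.05. DESeq2 and limma-voom also called 0 of them. The nearest was Eif2s2, the beta subunit of eIF2, at −0.21 (adjusted p = 0.312, edgeR). The 7 cytosolic elongation factor genes had 0 calls by edgeR and DESeq2, 0 at an unadjusted p under 0.05, and a median of −0.011, with Eef2k, the kinase that inhibits elongation factor eEF2, nearest at −0.22 (adjusted p = 0.466, edgeR).

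For mitochondrial translation, 0 of 13 tested factors were called, with a median of 0.042 and 3 at an unadjusted p under 0.05; DESeq2 called 1, and edgeR called 2 without G392E-NS replicate 1. Gfm1, a mitochondrial elongation factor, came nearest, at 64.2, 87.0 and 68.5 CPM in the G392E-NS libraries and 52.0, 49.99 and 53.2 CPM in the GFP libraries. Its log2 fold change was 0.50 ± 0.12 (SE, adjusted p = 0.0543, edgeR), and DESeq2 gave an adjusted p of 0.0156 for this gene. Of the 8 tested genes that proofread or help charge transfer RNA, 0 were called by edgeR, DESeq2 or limma-voom, 2 had an unadjusted p under 0.05 and the median was 0.31, with Pstk, which phosphorylates seryl-tRNA for selenocysteine, at 0.43 (adjusted p = 0.0955, edgeR).

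**Figure D5:**
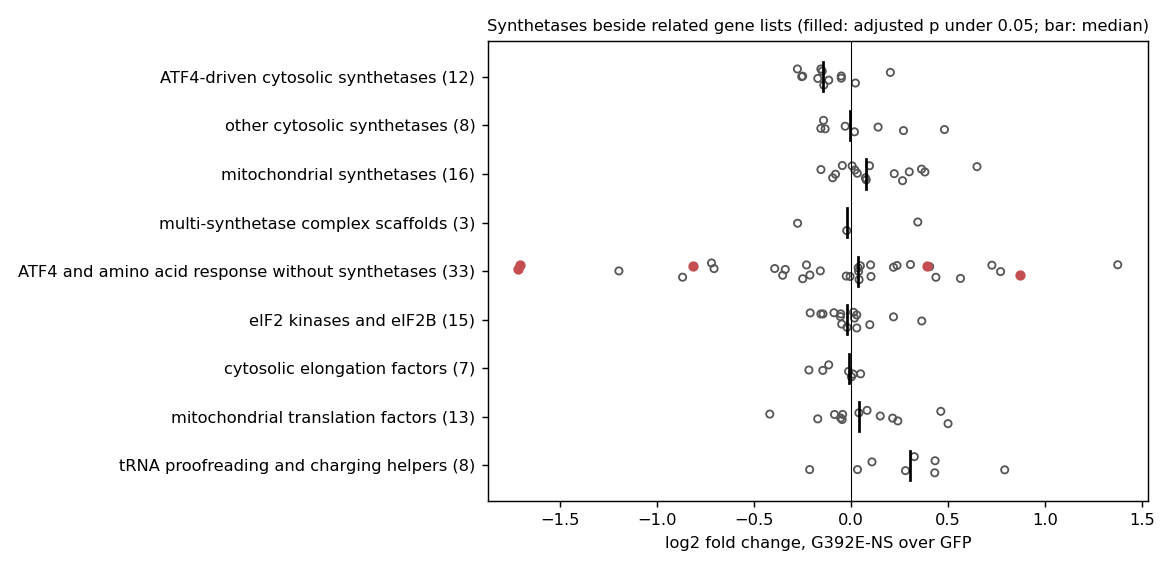
Log2 fold changes of the synthetases beside those of related gene lists, one point per gene, with filled points for an adjusted p under 0.05 and a bar for the median; the number tested is in brackets. Filled points occur in the ATF4 and amino acid response list, which has 2 higher and 3 lower, and in none of the synthetase lists.

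Markers of cell types differed between the same groups. Of 10 astrocyte markers 3 were higher in G392E-NS cells (Slc1a2, Aldoc and Aldh1l1) and 0 lower, where 4.79% of all genes tested were higher. Leaving out GFP replicate 2 gave 0, leaving out either other GFP replicate gave 1 and leaving out G392E-NS replicate 1 gave 5, while DESeq2 gave 6 and no low-count filter gave 8. The summed level of the 10 was 10010.2 to 16266 CPM in the G392E-NS libraries and 4254 to 6460 CPM in the GFP libraries. The tested progenitor and neuron markers had counts in every library. Of the 10 neuron markers listed, 8 had enough counts to test, while Stmn2 and Nefl did not. Of 7 progenitor markers Prom1 was higher, a call made in all 14 alternatives, and Nes was lower, a call made in 6 of the 14 and lost without any 1 GFP replicate and without G392E-NS replicate 3. Of 8 tested neuron markers 0 were higher and 1, Elavl4, was lower. That call was lost on leaving out any library but G392E-NS replicate 1, and without GFP replicate 3 there were 2 neuron markers higher and 0 lower, while DESeq2 gave 1 in each direction. Of 7 markers of oligodendrocyte precursors Pdgfra was higher, a call lost with total-count scaling and on leaving out G392E-NS replicate 2 or any GFP replicate.

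The 6 microglia markers held 26 counts in all, with Csf1r at no counts, and passed no filter for testing. Cdh5, of the vascular markers, had no counts either. Mesenchymal and vascular markers summed to 2.69 to 5.36 CPM in the G392E-NS libraries and 0.590 to 1.23 CPM in the GFP libraries, and of the 2 tested, Twist1 was higher in G392E-NS cells at 2.19 ± 0.956 CPM, with no counts in the GFP libraries. Of 8 cell cycle genes 0 were called by edgeR or DESeq2, with 0 at an unadjusted p under 0.05 (2 were lower without GFP replicate 3). All 8 had a log2 fold change below 0, with a median of −1.03, where 50.7% of all genes tested were below 0. Mki67, the nearest, had 1.91, 1.06 and 3.91 CPM in the G392E-NS libraries (adjusted p = 0.277, edgeR). In GFP replicates 1, 2 and 3 Mki67 had 8.70, 16.2 and 0.513 CPM, a wide spread. The 8 genes summed to 56.1 to 80.9 CPM in the G392E-NS libraries and 60.1 to 123 CPM in the GFP libraries. The part of any of these shifts in the synthetase levels was not tested.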

How the data were processed

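RNA of 3 G392E-NS and 3 GFP samples was sequenced, and the authors deposited raw counts per Ensembl gene and library, which are whole numbers and not normalised. Per the submitters' processing notes the build was GRCm38, and the tools listed, with no role, are DESeq2 1.4.5, R 3.2.2, HTSeq 0.6.1 and TopHat2 2.0.12. What annotation, strand setting and filters were used is not given in the sources used here, so reads of overlapping genes may be lost or shared: 13 synthetases have an exon that overlaps one of another gene. Replicates differed by more than sampling noise (chi-square per degree of freedom 8.02 to 56.4).

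Groups were taken from the labels. Symbols were paired with 37607 of 39179 genes through GENCODE M21. Genes were filtered with filterByExpr, which left 13775 genes with 99.9% of counts. They were scaled by TMM and tested with the quasi-likelihood F test of edgeR 4.0.16 in R 4.3.3, with Benjamini-Hochberg adjustment and a threshold of 0.05. The biological coefficient of variation was 0.159. Fits were tested on simulated data with known changes. CPM values are mean ± SD.

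Results were recomputed with DESeq2 1.42.0, with limma-voom (limma 3.58.1), with total-count, RLE or upper-quartile scaling, without the low-count filter or with 1 CPM in 3 libraries in its place, with a block for the replicate number, and without each library in turn. All 36 synthetases are named, and of each other list up to 4 called genes by adjusted p, or the nearest where none passed. The synthetases and the lists were chosen with earlier results of these data known. Medians and counts over lists carry no test, and sequences are from RefSeq (GRCm38.p6). The sequence at 1 promoter with the searched word is not reported here.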

Additional observations from a re-analysis of the deposited data

How the results depend on the processing

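No cytosolic synthetase was called in any of the 14 alternatives, and Fars2 was the 1 mitochondrial enzyme called, higher in G392E-NS with DESeq2, with no low-count filter and without G392E-NS replicate 1, so the mitochondrial count was 1 there and ranged over 0 to 1 on leaving out a library. Its log2 fold change ranged over 0.45 to 0.82 and its adjusted p over 0.0168 to 0.262. The cytosolic median stayed below 0 and the mitochondrial median above 0 in all 14. The mitochondrial median was 0.017 with total-count scaling and 0.013 to 0.13 on leaving out a library, and the cytosolic median was −0.15 to −0.065 on leaving out a library.

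Over all genes, 847 were called and 660 of these were higher in G392E-NS. DESeq2 called 1450 with 1098 higher, no low-count filter gave 1579 with 1205 higher, and leaving out a library gave 242 to 1373 with 196 to 981 higher. The fit with a replicate block called 267, of which 217 higher, and 0 synthetases. It also called 0 of the ATF4 response genes, of the astrocyte and neuron markers and of the oligodendrocyte precursor markers, and Prom1 alone of the progenitor markers. The labels do not say whether the shared replicate numbers pair the samples. The deviations of same-numbered samples correlated at 0.034, −0.38 and −0.25, too few values to decide it.

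Of 504 pairs of a synthetase and an alternative, 475 kept direction and call, 3 (Fars2) gained a call and 26, over 10 genes with changes near 0, turned sign. With total-count scaling these were Eprs −0.038, Kars −0.041, Cars2 −0.029, Rars2 −0.055 and Tars2 −0.039, and with no low-count filter Rars2 −0.0098. On leaving out a library the log2 fold changes spanned −0.015 to 0.075 for Eprs, −0.071 to 0.0037 for Hars, −0.046 to 0.085 for Kars, −0.14 to 0.028 for Sars, −0.011 to 0.19 for Aars2 and −0.064 to 0.13 for Cars2. They spanned −0.048 to 0.076 for Rars2, −0.17 to 0.013 for Sars2, −0.035 to 0.071 for Tars2 and −0.093 to 0.0099 for Vars2. The cause was not tested.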
